A study of Mus musculus with 9 samples.

Results

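The genes described here encode 10 subunits and proteins of the adaptors that the small GTPase Arf1 brings to membranes: Ap1b1, Ap1g1, Ap1m1, Ap1s1 and Ap1s2 of the AP-1 complex, Ap3d1 and Ap3b1 of the AP-3 complex, and Gga1, Gga2 and Gga3. They were chosen by gene symbol and make up 10 of the 21899 genes in the deposited table. The rule uses no measured value, but earlier results of these data were known when the genes were chosen. The study measured RNA in Neuro-2a (N2a) cells, a line from a mouse neuroblastoma, in which Arf1 was knocked down to study lipid metabolism. All cells carried a short hairpin from a lentiviral pLKO.1 vector with a puromycin marker, directed at luciferase, which these cells lack, in the control (shlucif) or at Arf1 in the 2 other groups (shArf1-1 and shArf1-2), with 3 libraries per group and no further treatment. Since the labels do not say that the libraries of a group came from separate cultures, the p-values measure only the spread between these libraries, which may be technical.

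Arf1 in its GTP-bound form sits on the Golgi and on endosomes and recruits coat proteins there. AP-1 is a complex of 4 kinds of subunit, gamma, beta1, mu1 and sigma1, which binds sorting signals in cargo and recruits clathrin at the trans-Golgi network and on endosomes. The GGAs are single proteins that carry mannose 6-phosphate receptors and other cargo between the same compartments. AP-3, with the subunits delta, beta3, mu3 and sigma3, sorts cargo to lysosomes and lysosome-related organelles, and in neurons a version with the beta3B and mu3B subunits takes part in making synaptic vesicles. Loss of delta or of beta3A in mice gives the mocha and pearl coat-colour mutants, in which the whole complex is lost or unstable.

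The target sites of both hairpins are shown because they are the sequences at which the Arf1 message was targeted. In GRCm38 they lie on the minus strand in the coding sequence of Arf1, at chr11:59213222-59213242 in exon 3 for shArf1-1 and at chr11:59213386-59213406 in exon 2 for shArf1-2.
shArf1-1 target: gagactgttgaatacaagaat
shArf1-2 target: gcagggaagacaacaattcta
Of the 67 annotated transcripts of the 10 adaptor genes, 0 held either of these 21-base sequences. Beyond Arf1, exact matches lay in the annotated genes AC127331.2 (both sequences) and Gm19587 (shArf1-2 only). Arf1 itself was at 712, 672 and 707 CPM (counts scaled to library size, after TMM normalization) in the shlucif libraries, at 271, 265 and 262 with shArf1-1 and at 341, 318 and 352 with shArf1-2. The 3 groups did not overlap. On the log2 scale Arf1 fell by 1.39 with shArf1-1 (standard error 0.052, adjusted p = 1.39e-22) and by 1.05 with shArf1-2 (standard error 0.051, adjusted p = 4.20e-19). These and all adjusted p-values below come from edgeR's quasi-likelihood test, corrected over all genes tested by the method of Benjamini and Hochberg.

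Libraries held between 11182479 and 15594615 counts, and 12448 genes had enough counts to be tested, among them all 10 adaptor genes. The first principal component of the libraries took 84% of the variance and separated shlucif from both hairpins. Summed marker levels in this paragraph are CPM scaled to the library total alone, without TMM. All 8 marker genes of neurons and neuroblasts had counts in every group. Their summed level was 1190 to 1250 CPM with shlucif, 1790 to 2080 with shArf1-1 and 1840 to 1890 with shArf1-2. Tubb3 made up most of this sum. After TMM it was at 756 to 852 CPM with shlucif and 1128 to 1409 CPM with an Arf1 hairpin. Map2 fell by 0.43 and 0.58 on the log2 scale, and Th did not pass with either hairpin (adjusted p = 0.740 and 0.596, same edgeR test). Of 14 macrophage or microglia markers, all 14 had counts with shlucif, at a summed 257 to 309 CPM, against 1.04 to 1.15 CPM with shArf1-1 and 1.02 to 1.91 CPM with shArf1-2. Lyz2, Cd68 and Ctss were the highest of these with shlucif, at 81.7 to 93.3, 64.3 to 79.2 and 42.9 to 48.9 CPM after TMM. Aif1, Cx3cr1, Itgam, Ctss, C1qa, C1qb and C1qc were at 0 in all libraries of both hairpins. Of these, Aif1, Cx3cr1 and C1qa were near 0 with shlucif too, at 2 to 5, 1 to 2 and 0 to 1 counts per library. The summed CPM of other marker lists was also lower with shArf1-1 and with shArf1-2 than with shlucif. Endothelial markers were at 23.1 to 25.3 CPM with shlucif and 9.82 to 13.8 CPM with either hairpin, fibroblast markers at 14.0 to 15.7 and 9.11 to 11.9, oligodendrocyte markers at 38.7 to 39.4 and 28.4 to 35.9, and astrocyte markers at 2.47 to 3.15 and 0.297 to 1.97. Pecam1, Cdh5, Col1a1, Mbp and Aldh1l1 of these lists were called lower with both hairpins, while Aqp4, Slc1a3 and Sox10 were at 0 in every library. In bulk RNA, fewer cells of a type and less RNA per cell cannot be told apart. These markers separate the same libraries as the hairpins do, and their part in the differences given for the adaptor genes was not tested.

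In shlucif cells the adaptor genes covered more than a 10-fold range of FPKM (fragments per kilobase of gene, scaled to the library total). FPKM compares levels between genes only as far as the deposited gene lengths match the transcripts expressed, which was not tested. Ap1s1, the sigma1A subunit, was the highest at 67.8 ± 1.69 FPKM (SD, n = 3), above 97.0% of all 21899 genes, those without a count included. Gga1 (36.6 ± 0.841), Ap3b1 (36.3 ± 1.24), Ap1m1 (33.0 ± 1.90) and Ap1b1 (31.6 ± 2.12 FPKM, all SD, n = 3) followed, and each of these 4 overlapped its neighbour in the order. Ap1g1 (14.1 ± 0.420) and Ap3d1 (13.7 ± 0.509) overlapped each other and stood apart from Ap1b1 above them. Gga3 (12.1 ± 0.323) and Gga2 (11.3 ± 0.870) overlapped each other, and Ap1s2, the sigma1B subunit, was the lowest at 5.22 ± 0.995 FPKM (SD, n = 3). The large subunit delta of AP-3 was thus listed at less FPKM than its partner beta3A with shlucif, with 13.1 to 14.1 against 34.96 to 37.4 FPKM.

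**Figure D1:**
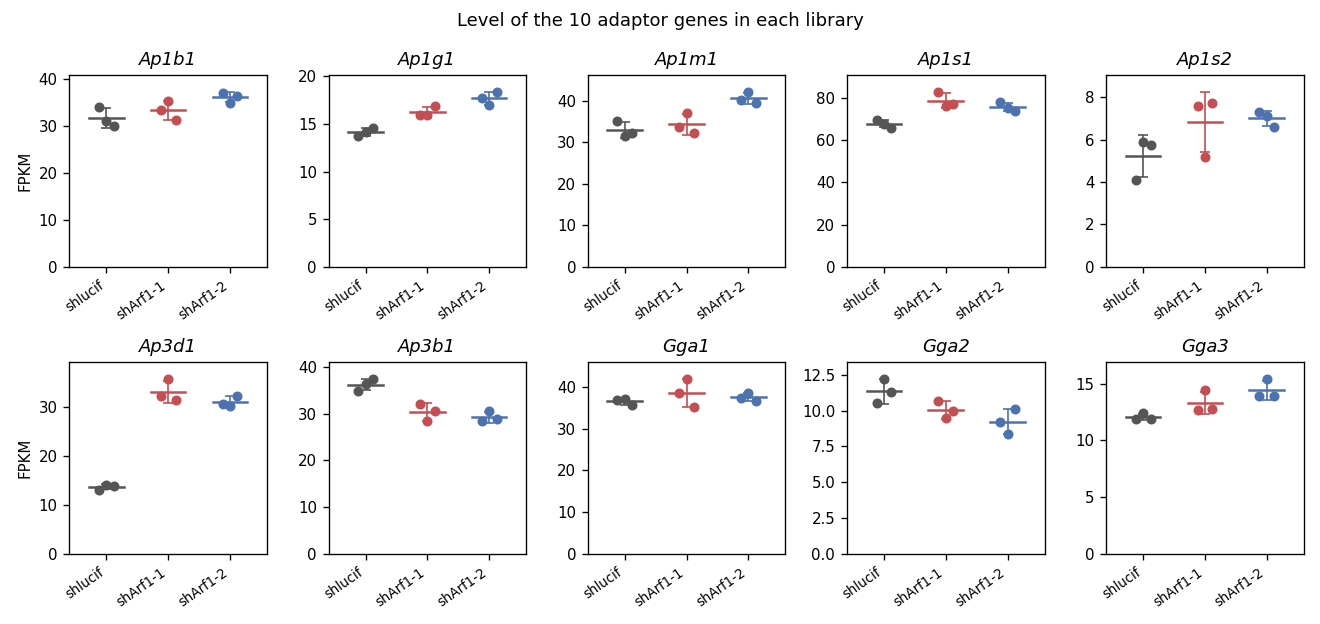
Level in FPKM (linear axis from 0) of each adaptor gene in every library, grouped by hairpin; points are libraries, horizontal lines group means and vertical bars 1 SD (n = 3). Ap3d1 is the gene whose groups stand farthest apart, at 13.1 to 14.1 FPKM with shlucif and 30.2 to 35.7 FPKM with either Arf1 hairpin.

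With shArf1-1, 5 of the 10 adaptor genes passed the threshold of 0.05 on the adjusted p from edgeR, where 67.5% of all tested genes did. The higher ones were Ap3d1, Ap1g1 and Ap1s1 (33.1% of tested genes were higher) and the lower ones Ap3b1 and Gga2 (34.4% were lower). With shArf1-2, 7 of 10 passed against 63.4% of all tested genes. Ap3d1, Ap1g1, Ap1m1, Ap1s2 and Gga3 were higher (30.9% of tested genes) and Ap3b1 and Gga2 lower (32.6%). Ap3d1 and Ap1g1 were higher with both hairpins, where 27.3% of tested genes were, and Ap3b1 and Gga2 lower with both, where 29% were. Both comparisons use the same shlucif libraries, and the shares of adaptor genes that passed are near those of all genes. The median log2 fold change of the 10 genes was 0.053 with shArf1-1 and 0.149 with shArf1-2, beside -0.0013 and 0.0015 over all tested genes.

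The AP-3 delta gene had the largest change of the 10 with both hairpins. Ap3d1 (ENSMUSG00000020198, chr10:80706956-80742264, minus strand, GRCm38) was at 122, 128 and 127 CPM in the shlucif libraries, at 285, 316 and 276 with shArf1-1 and at 269.6, 261 and 284 with shArf1-2. Every library of both hairpins lay above every shlucif library, and the hairpins overlapped each other. Ap3d1 rose 2.33-fold with shArf1-1 (log2 1.22, standard error 0.056, adjusted p = 7.79e-20, edgeR's quasi-likelihood test). With shArf1-2 it rose 2.16-fold (log2 1.11, standard error 0.056, adjusted p = 1.31e-18, same edgeR test). A rise of at least 1 on the log2 scale past the threshold was reached by 5.26% of tested genes with shArf1-1 and 4.26% with shArf1-2, and among the adaptor genes by Ap3d1 alone. By rank from the highest change it was 428 and 438 of 12448 genes. The difference between the hairpins was -0.11 (95% interval -0.22 to 0.00, adjusted p = 0.205, same edgeR test).

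The partner large subunit moved the other way. Ap3b1, encoding beta3A (ENSMUSG00000021686, chr13:94358960-94566317, plus strand), was at 165, 168 and 176 CPM with shlucif, at 146, 128 and 137 with shArf1-1 and at 127, 135 and 129 with shArf1-2. All libraries of both hairpins lay below all shlucif libraries. It fell by 0.31 on the log2 scale with shArf1-1 (standard error 0.058, adjusted p = 1.50e-05, edgeR's quasi-likelihood test) and by 0.38 with shArf1-2 (standard error 0.057, adjusted p = 5.37e-07).

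The neuronal beta3B gene, Ap3b2, rose with both hairpins. Its FPKM was 9.38, 10.01 and 9.68 with shlucif, 15.5, 16.2 and 14.9 with shArf1-1, and 14.4, 14.4 and 15.02 with shArf1-2. The log2 fold changes were 0.63 (standard error 0.061, adjusted p = 3.74e-11) and 0.52 (standard error 0.061, adjusted p = 2.95e-09, edgeR's quasi-likelihood test). The summed FPKM of both beta3 genes was 45.9 ± 1.44 with shlucif, 45.9 ± 1.63 with shArf1-1 and 43.9 ± 1.12 with shArf1-2 (SD, n = 3), and exact permutation tests (two-sided, 3 against 3) gave p = 1.0 and p = 0.2. Ap3b2 made up 21.1% ± 0.52 of this sum with shlucif, 33.9% ± 2.1 with shArf1-1 and 33.3% ± 1.1 with shArf1-2 (SD, n = 3). The shares did not overlap between shlucif and either hairpin, and both differences, of 12.8 and 12.2 percentage points, had an exact permutation p of 0.1, the smallest that 3 against 3 libraries can give. As a share of CPM, which does not correct for gene length, the differences were 15.3 and 14.7 percentage points.

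The remaining AP-3 genes were called lower or not called. Ap3m1 (mu3A) fell by 0.35 with shArf1-1 and by 0.28 with shArf1-2 on the log2 scale, Ap3m2 (mu3B) by 0.44 and 0.29, and Ap3s2 (sigma3B) by 0.20 with each (adjusted p between 5.20e-06 and 0.0201, edgeR's quasi-likelihood test). Ap3s1 (sigma3A) had changes of -0.23 and -0.14 that did not pass (adjusted p = 0.341 and 0.551, same edgeR test), with 10.7 to 19.0 FPKM over the 9 libraries. The share of mu3B within the mu3 genes was 21.5% ± 0.37 with shlucif, 20.5% ± 1.6 with shArf1-1 and 21.5% ± 1.1 with shArf1-2 (SD, n = 3), and the exact permutation p was 0.4 and 1.0. Within AP-3, then, the genes called higher with both hairpins were those of delta and beta3B. Those called lower with both were the genes of beta3A, mu3A, mu3B and sigma3B. Across all tested genes, 27.3% were called higher and 29% lower with both hairpins. Ap3d1 FPKM was 0.298 ± 0.0057 of the summed beta3 FPKM with shlucif, 0.722 ± 0.069 with shArf1-1 and 0.709 ± 0.034 with shArf1-2 (SD, n = 3).

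**Figure D2:**
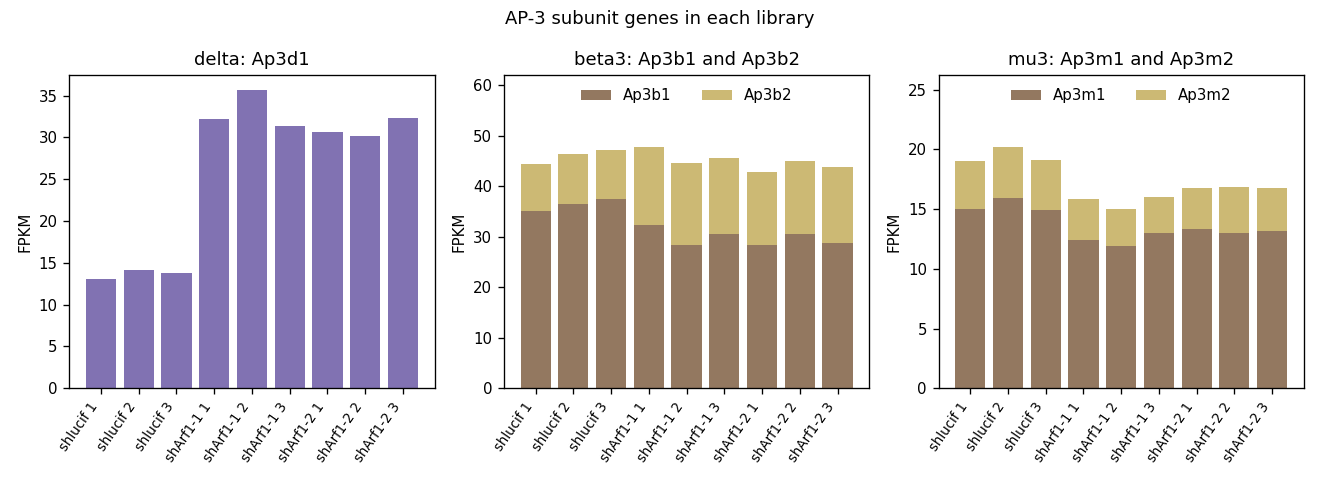
FPKM (linear axis from 0) in each of the 9 libraries for the AP-3 delta gene Ap3d1 and, as stacked bars, for the beta3 genes Ap3b1 and Ap3b2 and the mu3 genes Ap3m1 and Ap3m2. Ap3d1 is higher in all 6 libraries with an Arf1 hairpin, the summed beta3 bars stay between 42.8 and 47.7 FPKM while the Ap3b2 portion is larger, and the summed mu3 bars are shorter.

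The promoters of Ap3d1 and Ap3b1 are printed since these subunits of 1 complex moved in opposite directions. The sequences are those of RefSeq (GRCm38.p6), from 250 bases before to 50 after the start of each gene, and the table held 9 of the 10 adaptor genes, not Ap1m1. Capitals mark CCAAT and GGGCGG, searched on both strands.
Ap3d1 (chr10:80742226-80742525, minus strand): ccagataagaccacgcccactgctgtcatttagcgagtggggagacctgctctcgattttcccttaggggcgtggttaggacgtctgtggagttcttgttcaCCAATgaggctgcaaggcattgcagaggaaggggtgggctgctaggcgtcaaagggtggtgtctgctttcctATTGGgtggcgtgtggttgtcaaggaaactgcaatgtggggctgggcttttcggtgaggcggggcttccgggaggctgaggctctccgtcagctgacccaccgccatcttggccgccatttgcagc
Ap3b1 (chr13:94358710-94359009, plus strand): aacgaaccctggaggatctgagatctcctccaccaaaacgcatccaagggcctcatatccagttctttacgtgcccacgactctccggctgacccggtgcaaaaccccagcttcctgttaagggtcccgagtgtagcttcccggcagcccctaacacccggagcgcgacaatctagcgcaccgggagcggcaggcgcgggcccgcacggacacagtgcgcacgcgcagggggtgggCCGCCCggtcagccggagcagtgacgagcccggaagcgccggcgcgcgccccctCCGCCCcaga
The Ap3d1 window had a GC content of 58.7% and held CCAAT, which 37.4% of 32851 promoters did. The Ap3b1 window had a GC content of 67.7% and held GGGCGG, found in 35.7% of promoters. Among the 9 adaptor promoters CCAAT was in 4 (Ap1s1, Ap1s2, Ap3d1 and Gga2) and GGGCGG in 6 (Ap1b1, Ap1g1, Ap1s1, Ap3b1, Gga2 and Gga3). CACGTG, an E-box, was in the promoters of Ap1s2 and Gga2 (7.15% of all promoters), and neither TCACGTGA (0.974%) nor TGACGTCA (1.79%) was in any of the 9, where TCACGTGA contains CACGTG. Around Ap3d1, 49 other tested genes lay within 500 kb. With both hairpins 12 of them were higher and 16 lower, where 27.3% and 29% of all tested genes were. Their median log2 fold changes were -0.034 with shArf1-1 and 0.025 with shArf1-2. Around Ap3b1 there were 5 such genes, 1 higher and 1 lower with both hairpins, with medians of 0.011 and -0.147.

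Among the 5 AP-1 genes of the group every change that passed was a rise, of at most 0.35 on the log2 scale. The gamma subunit is a large subunit that binds Arf1 and accessory proteins, and its gene Ap1g1 (chr8:109778554-109864204, plus strand) was at 109.6, 110.0 and 115.5 CPM with shlucif, at 122, 121 and 128 with shArf1-1 and at 134, 126 and 139 with shArf1-2. Both hairpins lay wholly above shlucif. Ap1g1 rose by 0.15 on the log2 scale with shArf1-1 (standard error 0.059, adjusted p = 0.0256, edgeR's quasi-likelihood test) and by 0.25 with shArf1-2 (standard error 0.058, adjusted p = 0.000311). The first of these calls was lost without shlucif replicate 1 (adjusted p = 0.0728), shlucif replicate 2 (0.0755) or shArf1-1 replicate 3 (0.0857, same edgeR test). The annotation also holds an antisense gene within Ap1g1, Gm17344, that is not a row of the table. Its paralog Ap1g2, gamma2, fell by 0.33 with shArf1-1 and by 0.31 with shArf1-2 (adjusted p = 0.0219 and 0.0302, same edgeR test). Gamma2 made up 22.1% ± 1.4 of the summed FPKM of both gamma genes with shlucif, 17.1% ± 2.8 with shArf1-1 and 16.2% ± 2.0 with shArf1-2 (SD, n = 3, exact permutation p = 0.1 for each, the smallest possible).

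The other large subunit of AP-1 did not pass with either hairpin. Ap1b1 (chr11:4986824-5042791, plus strand), the beta1 subunit that binds clathrin, was at 175, 156.5 and 153 CPM with shlucif, at 165, 174 and 153 with shArf1-1 and at 180.5, 167.5 and 178 with shArf1-2. The 3 groups overlapped in CPM, though in FPKM shArf1-2 (34.85 to 36.98) lay above shlucif (29.9 to 34.01). On the log2 scale the change of Ap1b1 was 0.02 (95% interval -0.10 to 0.14, adjusted p = 0.782) with shArf1-1 and 0.12 (95% interval -0.00 to 0.24, adjusted p = 0.0839, edgeR's quasi-likelihood test) with shArf1-2. Without shlucif replicate 1, the highest of its group, the second was 0.18 with an adjusted p of 0.0140 in the same edgeR test. Over 19 alternative settings the shArf1-2 change ran from 0.08 to 0.19 and passed in 5.

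Ap1m1 (chr8:72240018-72257385, plus strand), the mu1A subunit that reads tyrosine-based sorting signals, was at 116, 102 and 106 CPM with shlucif, at 107, 117 and 102 with shArf1-1 and at 126.5, 130.0 and 124 with shArf1-2. Only the shArf1-2 libraries stood apart, above all others. Ap1m1 rose by 0.23 with shArf1-2 (standard error 0.063, adjusted p = 0.00192, edgeR's quasi-likelihood test) and had a change of 0.00 with shArf1-1 (95% interval -0.13 to 0.13, adjusted p = 0.983). Its epithelial paralog Ap1m2 had at most 2 counts in any library and was not tested.

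The sigma1 subunits, the small chains that help to read dileucine signals, come from 3 genes. Ap1s1 (sigma1A, chr5:137034993-137046135, minus strand) was at 159, 152 and 149.8 CPM with shlucif, at 181, 166 and 168 with shArf1-1 and at 169, 160.0 and 160.4 with shArf1-2. Every library with an Arf1 hairpin was above every shlucif library, by little in the case of shArf1-2. Ap1s1 rose by 0.16 on the log2 scale with shArf1-1 (standard error 0.055, adjusted p = 0.0102, edgeR's quasi-likelihood test), a call lost without shArf1-1 replicate 1 (adjusted p = 0.0824). With shArf1-2 the change was 0.09 (95% interval -0.02 to 0.20, adjusted p = 0.166, same edgeR test), and it passed in 3 of 19 alternative settings, which were scaling to library size without TMM (0.16, adjusted p = 0.00952) and limma on FPKM at either pseudocount (0.16, adjusted p = 0.00828 and 0.00816).

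Ap1s2 (sigma1B, chrX:163909017-163933666, plus strand), whose human counterpart is mutated in an X-linked intellectual disability, had the largest standard error of the 10 log2 fold changes with each hairpin. It was at 21.04, 29.7 and 29.3 CPM with shlucif, at 37.4, 25.6 and 37.8 with shArf1-1 and at 35.6, 34.2 and 32.4 with shArf1-2. The shArf1-2 libraries were above all shlucif libraries, and shArf1-1 replicate 2 fell among the shlucif values. The log2 fold change was 0.34 with shArf1-1 (standard error 0.148, adjusted p = 0.0544, edgeR's quasi-likelihood test), and 0.49 without shArf1-1 replicate 2 (adjusted p = 0.000156, same edgeR test), the library with the lowest total. Without shlucif replicate 2 that change was 0.42 (adjusted p = 0.0401, same edgeR test). In all it passed in 7 of 19 alternative settings, among them no low-count filter (adjusted p = 0.000672, edgeR), library-size scaling (0.0364, edgeR), DESeq2 (0.0287) and limma at either pseudocount (0.0474 and 0.0485). With shArf1-2 it was 0.35 (standard error 0.146, adjusted p = 0.0486, same edgeR test) and passed in 9 of 19 alternative settings. Without shlucif replicate 1 it was 0.21 (adjusted p = 0.139, same edgeR test), and it also missed the threshold without shlucif replicate 3, shArf1-1 replicate 3 or any 1 of the shArf1-2 libraries (adjusted p between 0.0519 and 0.136). Ap1s3 (sigma1C) fell by 0.43 with shArf1-1 (adjusted p = 0.00512) and had a change of -0.26 with shArf1-2 (adjusted p = 0.0871, same edgeR test). Summed over the 3 sigma1 genes, FPKM was 78.5 ± 1.36 with shlucif, 89.7 ± 5.46 with shArf1-1 and 87.5 ± 2.08 with shArf1-2 (SD, n = 3, exact permutation p = 0.1 for each, the smallest possible).

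Of the 3 GGAs, Gga2 fell with both hairpins, Gga3 rose with shArf1-2 and Gga1 passed with neither. Gga1 (chr15:78877190-78894585, plus strand), the most abundant of them, was at 145, 142 and 138 CPM with shlucif, at 144, 157 and 131 with shArf1-1 and at 139, 141 and 136 with shArf1-2. All groups overlapped. The log2 fold changes were 0.02 (95% interval -0.10 to 0.14, adjusted p = 0.764) and -0.03 (95% interval -0.15 to 0.09, adjusted p = 0.640, edgeR's quasi-likelihood test).

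Gga2 (chr7:121986722-122021222, minus strand) was at 106, 121 and 114 CPM with shlucif, at 104, 91.8 and 96.1 with shArf1-1 and at 88.7, 79.0 and 97.5 with shArf1-2. All 6 libraries with an Arf1 hairpin were below the shlucif range, though on the FPKM scale shArf1-1 replicate 1 (10.7) lay within it. Gga2 fell by 0.23 with shArf1-1 (standard error 0.070, adjusted p = 0.00518, edgeR's quasi-likelihood test) and by 0.37 with shArf1-2 (standard error 0.070, adjusted p = 3.28e-05). The shArf1-1 call was lost in limma on FPKM (adjusted p = 0.0862 at a pseudocount of 1 and 0.0872 at 0.1). The annotation holds a copy of 744 bases of Gga2 at 95.6% identity, Gm5990, and an antisense gene, Gm44987, neither of them a row of the table, and whether counting used strand is not given in the sources used here.

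Gga3 (chr11:115584255-115604051, minus strand) was at 77.2, 79.1 and 76.6 CPM with shlucif, at 79.2, 89.1 and 78.95 with shArf1-1 and at 85.2, 93.0 and 85.8 with shArf1-2. In CPM the shArf1-2 libraries stood above shlucif, and those of shArf1-1 overlapped it. On the FPKM scale shArf1-1 (12.74 to 14.36) also lay above shlucif (11.88 to 12.44). Gga3 rose by 0.18 with shArf1-2 (standard error 0.066, adjusted p = 0.0168, edgeR's quasi-likelihood test), a call lost without shlucif replicate 3 (adjusted p = 0.0536) or shArf1-2 replicate 2 (0.0967), and had a change of 0.08 with shArf1-1 (95% interval -0.05 to 0.22, adjusted p = 0.264). Its locus overlaps Mrps7 on the opposite strand, which had up to 1122 counts in a library.

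The summed FPKM of the GGAs was 60.0 ± 1.62 with shlucif, 61.9 ± 3.88 with shArf1-1 and 61.1 ± 0.970 with shArf1-2 (SD, n = 3, exact permutation p = 0.6 and 0.3). Within this sum the share of Gga2 was 18.9% ± 1.1, 16.3% ± 1.6 and 15.1% ± 1.6, and that of Gga3 20.1% ± 0.071, 21.5% ± 0.81 and 23.5% ± 1.0 in the same order (SD, n = 3). Neither share overlapped between shlucif and a hairpin (exact permutation p = 0.1 for each, the smallest possible). Gga1 made up 61.0% ± 1.1, 62.2% ± 1.5 and 61.4% ± 0.86, with overlap (exact permutation p = 0.3 and 0.9).

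**Figure D3:**
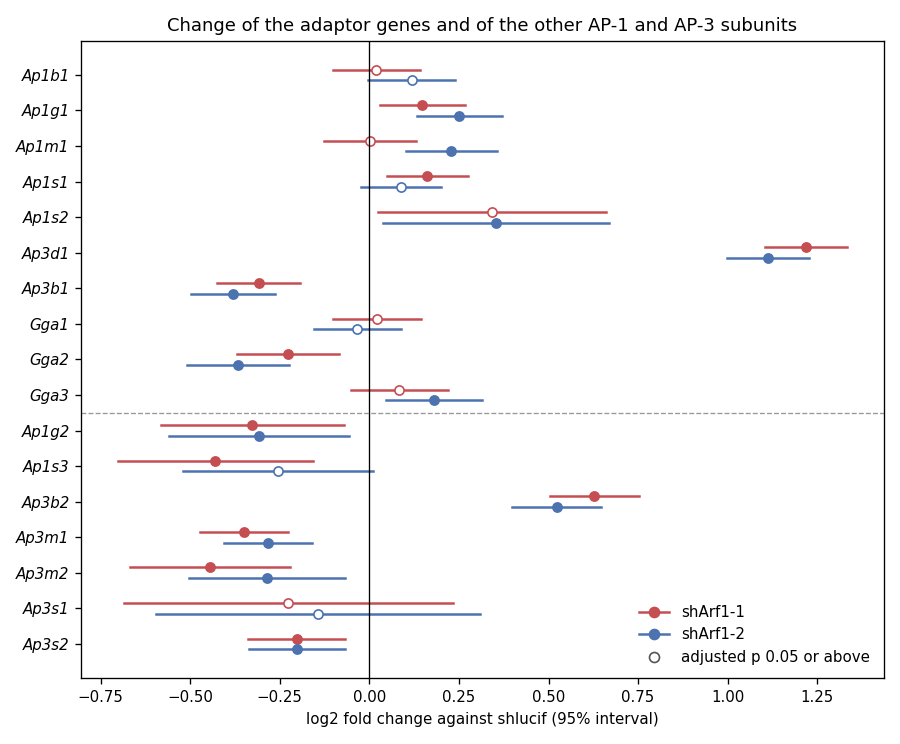
Log2 fold change against shlucif with shArf1-1 and shArf1-2 for the 10 adaptor genes (above the dashed line) and the other AP-1 and AP-3 subunits; lines are 95% intervals from edgeR's quasi-likelihood fit and open points have an adjusted p of 0.05 or above. Ap3d1 and Ap3b2 lie farthest to the right, and Ap3b1 and Gga2 are below 0 with both hairpins.

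On the CPM scale, 3 adaptor genes lay wholly above and 2 wholly below shlucif with shArf1-1 (69.4% of tested genes did not overlap), and 6 above and 2 below with shArf1-2 (67.8%). Between the hairpins, 1 of the 10 adaptor genes passed the threshold, against 14.4% of all tested genes (6.98% higher and 7.46% lower with shArf1-2), and 1 did not overlap, against 29.9%. That gene, Ap1m1, was higher with shArf1-2 than with shArf1-1 by 0.23 on the log2 scale (95% interval 0.10 to 0.35, adjusted p = 0.0125, edgeR's quasi-likelihood test). The call was lost without shArf1-1 replicate 1 (0.22, adjusted p = 0.0606), shArf1-1 replicate 3 (0.18, 0.0727) or shArf1-2 replicate 2 (0.21, 0.0596, same edgeR test). For the other 9 genes the differences ran from -0.14 (Gga2) to 0.10 (Ap1g1), with adjusted p-values that did not pass. Arf1 itself was 0.34 higher with shArf1-2 than with shArf1-1 (adjusted p = 1.16e-05, same edgeR test).

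All list counts that follow are to be read against the tested genes as a whole, of which 33.1% were called higher and 34.4% lower with shArf1-1, and 30.9% higher and 32.6% lower with shArf1-2. The AP-1 and AP-3 subunits outside the group of 10, of which 7 of 8 could be tested, were 1 higher and 5 lower with shArf1-1 (median log2 fold change -0.326) and 1 higher and 4 lower with shArf1-2 (median -0.255). Ap3b2 was the higher gene in both cases. AP-2, the plasma membrane relative that does not need Arf1, had 3 of 5 genes higher and 1 lower with shArf1-1 and 1 higher and 2 lower with shArf1-2. Its alphaC gene Ap2a2 rose by 0.22 and 0.16 and its alphaA gene Ap2a1 fell by 0.28 and 0.29. AP-4 and AP-5, which work without clathrin at the trans-Golgi network and on late endosomes, had 6 of 7 tested genes higher and 1 lower with each hairpin, with medians of 0.507 and 0.434 (33.1% of all tested genes were higher with shArf1-1 and 30.9% with shArf1-2). Ap4s1 rose by 1.41 and 1.08, Ap5b1 by 0.90 and 1.27 and Ap5m1 by 0.52 and 0.43, while Ap5s1 fell by 0.68 and 0.59. Ap4s1 had 30 to 48 counts per shlucif library and Ap5b1 20 to 37, so that these values rest on far fewer reads than those of the adaptor genes.

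Clathrin and its uncoating machinery had 1 of 6 genes higher and 4 lower with each hairpin, where 67.5% and 63.4% of all tested genes were called in either direction and 34.4% and 32.6% lower. The light chain gene Cltb rose by 0.56 and 0.30, and the heavy chain gene Cltc fell by 0.53 and 0.43. The uncoating chaperone Hspa8 fell by 1.07 and 0.96 and its cofactor Gak by 0.40 and 0.36. Among 10 genes of accessory proteins of AP-1 and the GGAs, 2 were higher and 5 lower with shArf1-1 and 2 higher and 3 lower with shArf1-2, beside the same shares of all genes. Ap1ar, which binds AP-1 and links it to a kinesin motor, rose by 0.49 and 0.58 and Clint1 (epsinR) by 0.31 and 0.21, while Clba1 fell by 0.99 and 0.89, Aftph (aftiphilin) by 0.70 and 0.62 and Heatr5a by 0.43 and 0.23.

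The cargo of AP-1 and the GGAs held the largest changes near the group. Of 8 genes, 2 were higher and 4 lower with shArf1-1 (33.1% and 34.4% of all tested genes) and 1 higher and 6 lower with shArf1-2 (30.9% and 32.6%). Igf2r, the large mannose 6-phosphate receptor, had 500 to 579 counts per shlucif library and 53 to 86 with a hairpin, and fell by 2.88 and 3.12 on the log2 scale. Sorl1, a sorting receptor, went from 236 to 274 counts to 4 to 12 and fell by 5.28 and 4.75. Sort1 (sortilin), a receptor of the same family, rose by 0.38 and 0.33, and the carboxypeptidase gene Cpd fell by 0.67 and 0.51. Of 15 genes of AP-3 cargo and partners 13 were tested, with 2 higher and 5 lower with shArf1-1 and 1 higher and 6 lower with shArf1-2, beside the same shares of all genes. Lamp2 fell by 0.83 with each hairpin, Cd63 by 0.62 and 0.56 and the BLOC-1 subunit Bloc1s3 by 0.86 and 0.61, while Bloc1s2 rose by 0.26 and 0.21. Macrophages also express Igf2r, Sorl1, Lamp2 and Cd63, and the part of the macrophage markers given above in these changes was not tested. Of 8 genes listed for Arf1 switching at the Golgi, Arf1 itself included, 3 were higher and 2 lower with shArf1-1. With shArf1-2, 2 were higher and 2 lower, beside the same shares of all genes. Gbf1, an exchange factor, rose by 0.57 and 0.44 and Arfgap2 by 0.27 and 0.42, while Arfgap3 fell by 0.78 with each hairpin. Arf3, Arfgef2 and Arfgap1 passed with neither hairpin.

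**Figure D4:**
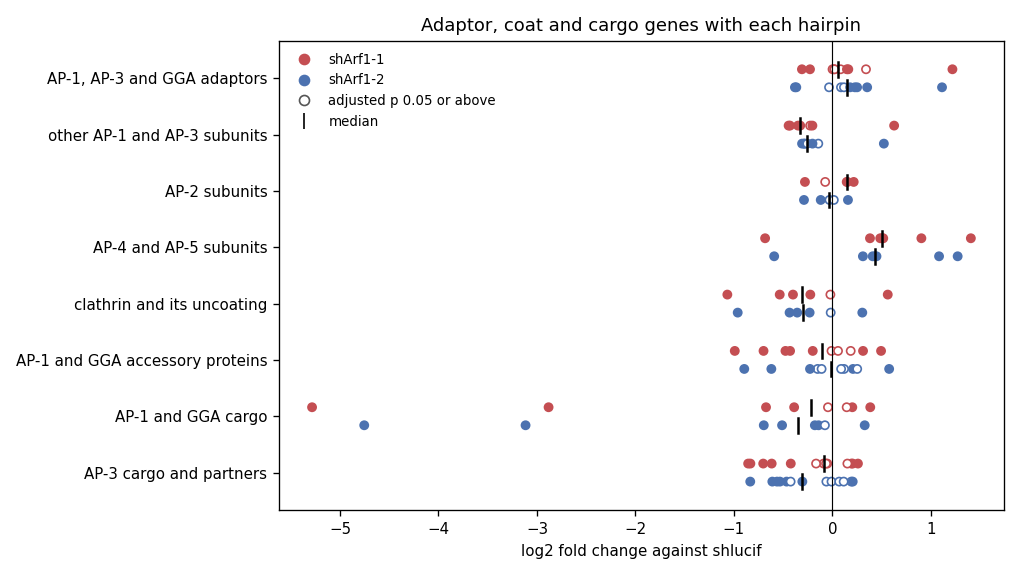
Log2 fold change against shlucif of the tested genes of each list, for shArf1-1 (upper row) and shArf1-2 (lower row); filled points have an adjusted p under 0.05 in edgeR's quasi-likelihood test and vertical bars are list medians. The adaptor genes scatter around 0 apart from Ap3d1, 6 of 7 AP-4 and AP-5 genes are to the right, and Sorl1 and Igf2r lie far to the left.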

How the data were processed

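Per the labels, poly(A) RNA was enriched on oligo(dT) beads, broken to fragments and copied from random primers. The authors deposited a raw read count and an FPKM value per gene and library in 1 table, and each FPKM could be recomputed from its count with the library total and the gene length in the table. The labels name mm10. The aligner, counter and use of strand are not given in the sources used here. Columns named for a second Arf gene were taken as shArf1-2, since no sample title names another target. Counts were analysed in R 4.3.3 with edgeR 4.0.16: filterByExpr left 12448 genes, TMM scaled the libraries, and 1 robust quasi-likelihood fit of all 9 libraries gave 3 contrasts with Benjamini-Hochberg adjusted p-values (threshold 0.05), tested on simulated data. A fit with replicate number as a block, limma 3.58.1, DESeq2 1.42.0, other scalings and filters, fits of 6 libraries and leaving out each library were alternatives. Paralog shares used FPKM and exact permutation tests. Coordinates are those of GENCODE M21 by gene identifier. All 10 adaptor genes and other AP-1 and AP-3 subunits were named, and from each other list up to 3 genes per direction with the largest mean change among those called with both hairpins. The members and lists were chosen with earlier results of these data known.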

Additional observations from a re-analysis of the deposited data

Results flagged for a closer look

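Two-sided edgeR quasi-likelihood tests of the difference between the hairpins pointed to 2 genes among the 10 adaptor genes and Arf1. Ap1m1 was 0.2269 higher with shArf1-2 than with shArf1-1 on the log2 scale, and Arf1 was 0.3419 higher. With 3 libraries per group, single libraries were not tested for standing apart.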

How the results depend on the processing

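Under 19 alternative settings, Ap3d1 and Ap3b1 kept their direction and passed the threshold with both hairpins in all 19, with log2 fold changes of 1.16 to 1.27 and 1.08 to 1.18 for Ap3d1 and of -0.35 to -0.25 and -0.40 to -0.30 for Ap3b1. Of 627 single-gene values, 574 kept direction and side, 15 gained a call, 21 lost one and 17 changed sign, all of the last in genes not called. Ap1m1 with shArf1-1 was -0.0168 with upper-quartile scaling, -0.0106 with relative log expression scaling, -0.0110 with at least 10 counts in every library and -0.0105 in DESeq2, and Gga1 with shArf1-2 was 0.0379 with library-size scaling, 0.0370 in limma at a pseudocount of 1 and 0.0379 at 0.1. With a library left out, Ap1b1 with shArf1-1 ran from -0.0291 to 0.0804, Ap1m1 with shArf1-1 from -0.0611 to 0.0553, Gga1 with shArf1-1 from -0.0477 to 0.0879, and between the hairpins Ap1s2 from -0.1384 to 0.1078 and Gga1 from -0.1206 to 0.0119. With a library left out the number of adaptor genes called was 4 to 6 with shArf1-1, 5 to 7 with shArf1-2 and 0 to 1 between the hairpins. Over all tested genes the number was 7894 to 8511, 7315 to 8200 and, between the hairpins, 1159 (without shArf1-1 replicate 1) to 1977. Without shArf1-2 replicate 1 it was 1194 between the hairpins. In the other alternative settings 5 to 6, 6 to 9 and 1 adaptor genes were called in the same order. Over all tested genes these settings gave 7645 to 8785, 7178 to 8230 and 1435 to 1941. As shares of CPM, differences from shlucif with shArf1-1 and shArf1-2 were 15.3 and 14.7 percentage points for Ap3b2, -4.06 and -6.12 for Gga2, 2.15 and 4.66 for Gga3, and with shArf1-2 2.59 for Ap1s2, -3.86 for Ap1g2 and 1.46 for Gga1, since CPM is not divided by gene length. The cause of the other shifts was not tested. Same-numbered libraries did not deviate together (correlations from -0.082 to 0.094 over 9 pairs), and with the replicate number as a block 5, 6 and 1 adaptor genes and 8431, 7939 and 1809 genes passed, Ap1s2 with shArf1-2 losing its call (0.36, adjusted p = 0.0629, edgeR). Ap1s2 had the fewest counts of the adaptor genes, with 279 to 596 per library, and the part of depth in its changing calls was not tested.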
